A study of Mus musculus with 8 samples.

Results

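The calcium/calmodulin-dependent protein kinases (CaMK) are serine/threonine kinases that are switched on by calmodulin once it has bound calcium. Their 10 genes here were Camk1, Camk1d, Camk1g, Camk2a, Camk2b, Camk2d, Camk2g, Camk4, Camkk1 and Camkk2. The genes were chosen by name, with earlier results of these data known. Every non-control probe that the array design assigns to one of these symbols was taken. The 10 genes carried 20 of the 55681 non-control probes. RNA came from medium spiny neurons (MSNs), which form most of the striatum and send its GABAergic output, of 4-week-old males. Cells were sorted by their Venus fluorescence and by exclusion of propidium iodide, a dye that enters dead cells. The R6/2 group held 4 arrays of R6/2;Scn4b-Venus mice and the control group 4 arrays of WT;Scn4b-Venus mice. R6/2 mice are a model of Huntington's disease: their transgene is a fragment of the human HTT gene whose CAG repeat is expanded, and they keep their own Htt genes. Both groups carry the Venus reporter of Scn4b, a sodium channel subunit of MSNs, and the sort therefore depends on Scn4b in both. The labels do not say how many mice gave the RNA of an array, so p-values measure only the spread between these samples. In RNA from a sorted population, fewer cells of a type and less RNA per cell cannot be told apart.

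As background, the family works in 2 arrangements. In the cascade, the activating kinases CaMKK1 and CaMKK2 phosphorylate CaMKI, which acts in the cytoplasm on axon and dendrite growth, and CaMKIV, which acts in the nucleus on CREB and its coactivators. CaMKII needs no such activator: its alpha, beta, gamma and delta subunits (Camk2a, Camk2b, Camk2g and Camk2d) assemble into large holoenzymes that phosphorylate themselves, and at synapses they are best known for their part in the strengthening of glutamate synapses. In MSNs, calcium enters through glutamate receptors and voltage-gated channels, and these kinases are among its main readers.

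An array reads each gene through probes of 60 bases, and different probes of a gene can report different transcript ends. The 3 probe sequences below are shown because they gave the smallest p-value of Camkk2, Camk2b and Camk2d, the activator and a pair of CaMKII subunits. The Camk2b and Camk2d probes shown had differences of opposite sign, which did not hold for every Camk2d probe. The sequences are written 5′ to 3′ in the sense of the transcript. Each can be read in at least 1 frame without a stop codon. Coordinates are on mm9, and the exon or untranslated region of a probe was not annotated here.
Camkk2 A_55_P2125684, chr5:123187482-123187541, minus strand: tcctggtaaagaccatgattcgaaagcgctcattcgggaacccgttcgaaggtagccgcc
Camk2b A_55_P2150578, chr11:5872636-5872695, minus strand: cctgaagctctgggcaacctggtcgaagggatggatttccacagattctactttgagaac
Camk2d A_55_P1978830, chr3:126543223-126543282, plus strand: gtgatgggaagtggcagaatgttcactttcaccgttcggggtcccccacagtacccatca

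Among all 20 kinase probes, 19 shared no run of 16 bases with a probe of another gene. The exception was Camk2a A_55_P2149215, which shared runs of up to 17 bases with 12 other probes.

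The comparison asks whether the kinase genes differ between MSNs of R6/2 and control mice at this early age. Most kinase probes read lower in R6/2, and a single Camk2d probe stood out as higher, but none passed the test across the array. A probe was tested if its signal stood well above background on 4 or more of the 8 arrays. That held for 17 of the 20 kinase probes, covering 9 of the 10 genes, and none of the 17 passed through the arrays of only 1 group. Levels are log2 intensity relative to the 75th percentile of the same array, so that 0 is that percentile, and a difference is R6/2 minus control on this log2 scale. Of the 17 probes, 14 had a negative difference (82.4%, against 44.5% of all 41385 tested probes) and 3 a positive one. The median difference of the 17 probes was -0.48, against 0.05 over all tested probes. The share over all probes depended on the processing. It was 51.4% over the 26669 probes well above background on all 8 arrays, where 13 kinase probes were negative. With each array scaled to its median it was 55%, and 14 kinase probes were negative. The kinases were chosen with earlier results of these data known, so these contrasts only describe them.

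No kinase probe passed an adjusted p of 0.05 in limma with Benjamini-Hochberg adjustment over all tested probes, where 0.00242% of probes (1 probe) passed. The adjusted p of the kinase probes ran from 0.548 to 0.983. At an unadjusted p under 0.05, 6 kinase probes were lower, where 3.05% of all tested probes were, and 1 was higher, where 3.96% were. The 6 were probes of Camkk2, Camk1d, Camk2b and Camk2g and 2 probes of Camk4, and the 1 was Camk2d A_55_P1978830. The count of 6 was 2 without control replicate 4 or without R6/2 replicate 4, and to 3 without control replicate 3 or without R6/2 replicate 2. The count of 1 was 2 without control replicate 2. Values of the groups did not overlap for 4 kinase probes that were lower in R6/2, where 2.26% of all tested probes were, and for 0 that were higher, where 2.31% were. The balance over the whole array depended on the scaling: 1263 probes were lower and 1638 higher at an unadjusted p under 0.05, and 1832 and 1151 when each array was scaled to its median. With median scaling the median over all tested probes was -0.05, and 8 kinase probes were lower and 1 higher. Over the 26669 probes well above background on all 8 arrays, 4.92% were lower and 3.08% higher, and 7 kinase probes were lower and 0 higher.

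**Figure D1:**
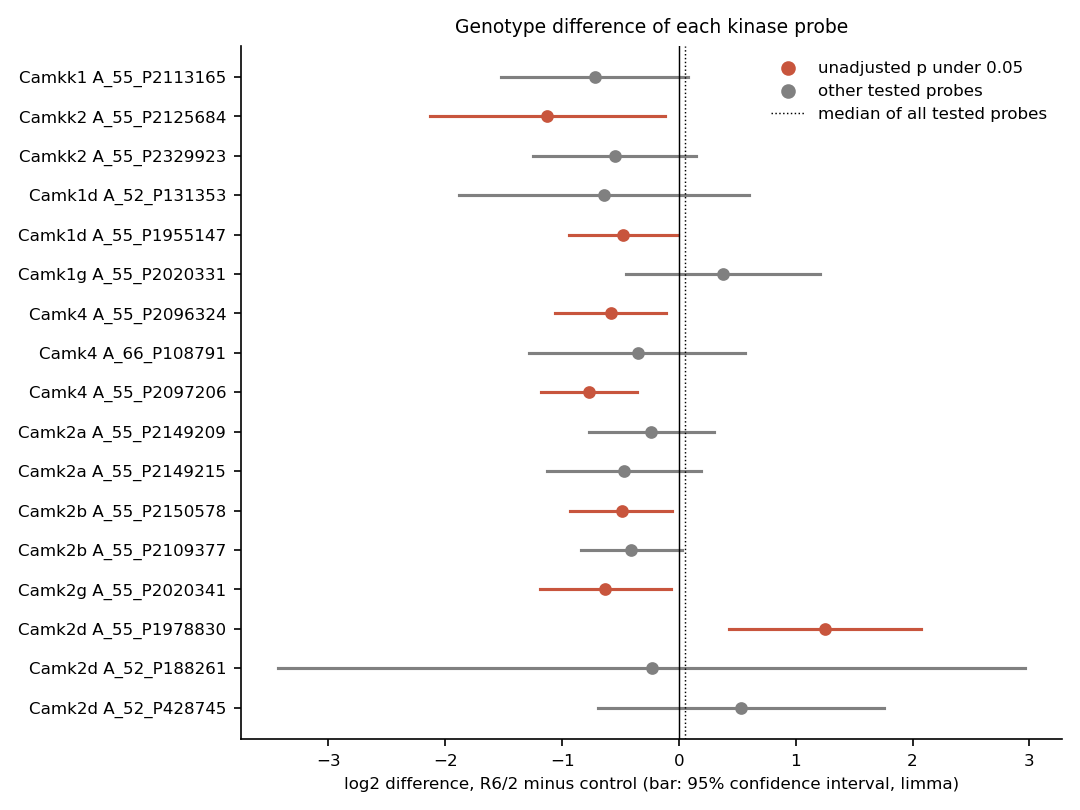
Log2 difference (R6/2 minus control) of the 17 tested kinase probes, ordered by role, with the 95% confidence interval from limma as a bar; red marks an unadjusted p under 0.05 and the dotted line the median of all tested probes (0.05). The 14 negative values lie between -1.13 and -0.23, and the red point on the right is Camk2d A_55_P1978830 at 1.25.

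The count was shared by the 4 R6/2 arrays. Against each probe's control mean, 13, 12, 13 and 13 of the 17 probes lay lower on the 4 R6/2 arrays, and 10, 5, 10 and 7 on the 4 control arrays, in the order of their replicate numbers. The median of the probes relative to the control mean was -0.42, -0.38, -0.29 and -0.79 in the R6/2 replicates and -0.12, 0.11, -0.08 and 0.12 in the control replicates. The control values lie around 0 by construction, because the mean is that of the same 4 arrays, and so are no contrast. Several of the 17 probes share a gene, and the same counts over all tested probes are not given. R6/2 replicate 4 had the lowest median. It was also the only array on the second slide and the second scan, and the slide's part in the result was not tested beyond leaving that array out.

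**Figure D2:**
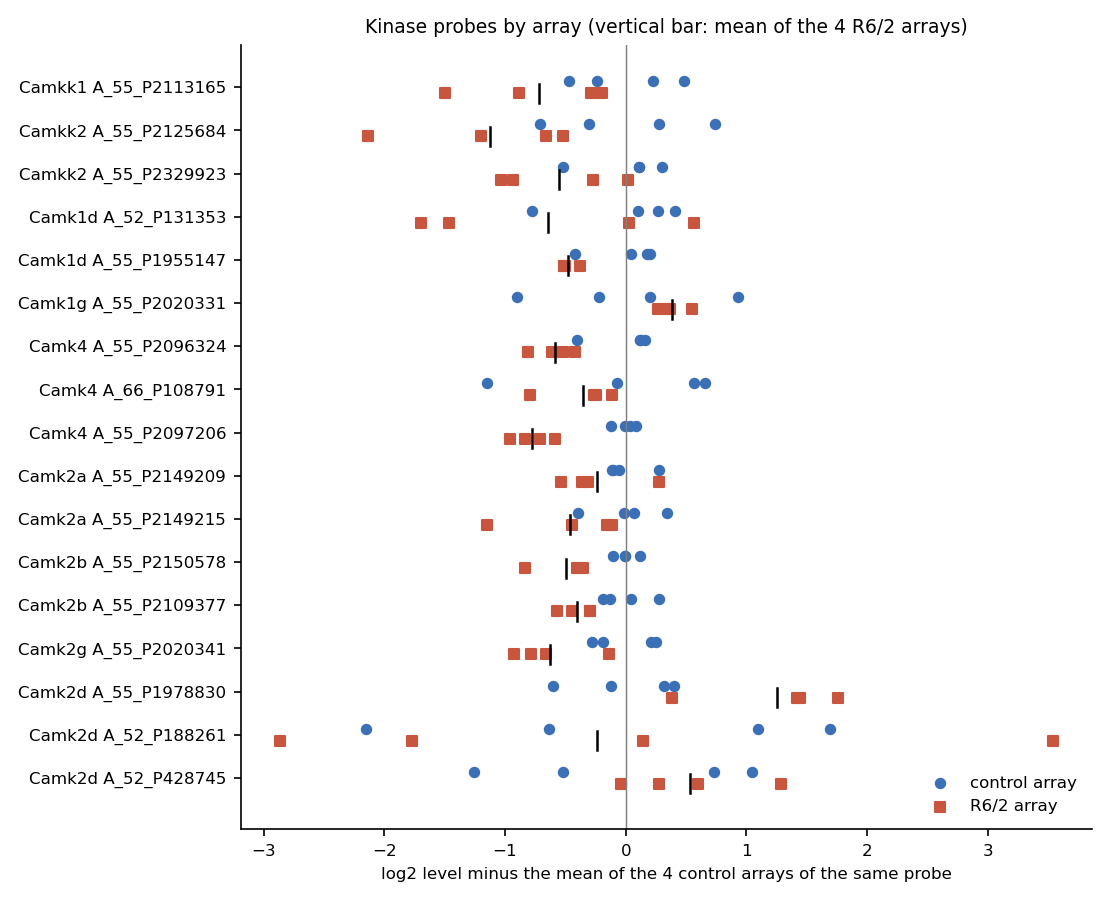
Log2 level of each tested kinase probe on each of the 8 arrays, minus the mean of the 4 control arrays of that probe; circles are control arrays, squares R6/2 arrays and the vertical bar the mean of the R6/2 arrays. Squares lie left of all circles for both Camk2b probes and for Camk4 A_55_P2096324 and A_55_P2097206.

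The activating kinases read lower in R6/2 on all 3 of their probes. For Camkk1, whose kinase activates CaMKI and CaMKIV, probe A_55_P2113165 (chr11:72855457-72855516) gave levels of 0.35, 1.30, 0.58 and 1.04 on the control arrays and -0.68, -0.07, 0.53 and 0.62 on the R6/2 arrays, each in the order of replicates 1 to 4, as are all levels below. R6/2 replicates 1 and 2 were below all controls, while replicates 3 and 4 lay within the control range. The difference was -0.72 ± 0.35 (SE; 95% confidence interval -1.52 to 0.08; limma unadjusted p = 0.0723, adjusted p = 0.737), and -0.46 without R6/2 replicate 1.

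Camkk2 encodes the activator that also phosphorylates the AMP-activated kinase. Its probe A_55_P2125684, printed above, read 1.27, 2.72, 2.25 and 1.67 in control and 1.32, 0.78, 1.46 and -0.16 in R6/2. Control replicate 1 was as low as the higher R6/2 arrays, so the groups overlapped, and R6/2 replicate 4 was the lowest of all. The difference was -1.13 ± 0.44 (SE; 95% interval -2.13 to -0.12; limma unadjusted p = 0.0318, adjusted p = 0.691), the most negative of the kinase probes. Its other probe, A_55_P2329923 (chr5:123183273-123183332), read 6.06, 6.06, 6.25 and 5.43 in control and 5.97, 5.02, 5.68 and 4.92 in R6/2. Here the low control array was replicate 4, and again the groups overlapped. This probe differed by -0.55 ± 0.31 (SE; 95% interval -1.25 to 0.15; adjusted p = 0.765).

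The CaMKI genes, targets of the activators, did not share a direction. Camk1d, which encodes the delta form of CaMKI, read 2.33, 2.18, 1.71 and 2.31 in control and 1.62, 1.75, 1.62 and 1.63 in R6/2 on probe A_55_P1955147 (chr2:5214566-5214625). Only control replicate 3 reached down into the R6/2 range, and the R6/2 arrays were tightly grouped. The difference was -0.48 ± 0.20 (SE; 95% interval -0.94 to -0.01; limma unadjusted p = 0.0464, adjusted p = 0.707). Its other probe, A_52_P131353, has 60 bases that span 1737 bases of the genome (chr2:5222627-5224363) and so crosses a splice junction. It read 0.14, -0.16, -1.04 and 0.00 in control and -1.96, -0.24, 0.30 and -1.73 in R6/2, with R6/2 replicates 1 and 4 low and replicate 3 the highest of all 8. The difference of this probe was -0.64 ± 0.54 (SE; 95% interval -1.88 to 0.60; adjusted p = 0.837). It was -0.29 without R6/2 replicate 1, -0.36 without R6/2 replicate 4, -1.04 without R6/2 replicate 3 and -0.17 with array weights.

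Camk1g encodes the gamma form of CaMKI, a membrane-anchored kinase. Its probe A_55_P2020331 (chr1:195172549-195172608) read -0.12, 1.03, 0.30 and -0.80 in control and 0.37, 0.45, 0.47 and 0.65 in R6/2. The R6/2 arrays lay inside the wide control range. The difference was 0.38 ± 0.36 (SE; 95% interval -0.45 to 1.21; adjusted p = 0.860). It was 0.08 without control replicate 4, and 0.69 without control replicate 2 (limma unadjusted p = 0.0446). Camk1 itself, the alpha form, was not tested: its probe A_51_P106259 (chr6:113286369-113286428), printed as 10 spots per array, was well above background on 1 control and 1 R6/2 array.

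Camk4, the nuclear kinase of the cascade, had the smallest p-value of the family. Its probe A_55_P2097206 (chr18:33355362-33355421) read 5.68, 5.52, 5.73 and 5.64 in control and 4.68, 4.93, 5.06 and 4.81 in R6/2. All R6/2 arrays were below all control arrays, and the gap between the groups was wider than the range of either. The difference was -0.77 ± 0.18 (SE; 95% interval -1.18 to -0.36), a ratio of 0.585 of R6/2 to control. In limma the unadjusted p was 0.00230, which ranked 171 of 41385 tested probes, and the adjusted p was 0.548. Without any 1 of the arrays, and under every other processing tried, the difference stayed between -0.87 and -0.68, the unadjusted p stayed under 0.05 and the adjusted p lay between 0.279 and 0.818.

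The other Camk4 probes had negative differences as well. Probe A_55_P2096324, nearest the transcript's start of the 3 (chr18:33099131-33099190), read 3.01, 2.44, 2.97 and 2.97 in control and 2.43, 2.24, 2.33 and 2.04 in R6/2. The groups did not overlap, although control replicate 2 was only just above R6/2 replicate 1. The difference was -0.58 ± 0.21 (SE; 95% interval -1.06 to -0.11; limma unadjusted p = 0.0223, adjusted p = 0.665). Probe A_66_P108791 (chr18:33345703-33345763) read 2.72, 1.0, 2.08 and 2.81 in control and 1.91, 1.89, 2.04 and 1.36 in R6/2. Control replicate 2 was the lowest of the 8 arrays on this probe, and the groups overlapped. It differed by -0.35 ± 0.41 (SE; 95% interval -1.28 to 0.57; adjusted p = 0.886). It was -0.74 without control replicate 2 (limma unadjusted p = 0.0305), and -0.13, -0.16 and -0.21 without control replicate 4, control replicate 1 and R6/2 replicate 4.

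**Figure D3:**
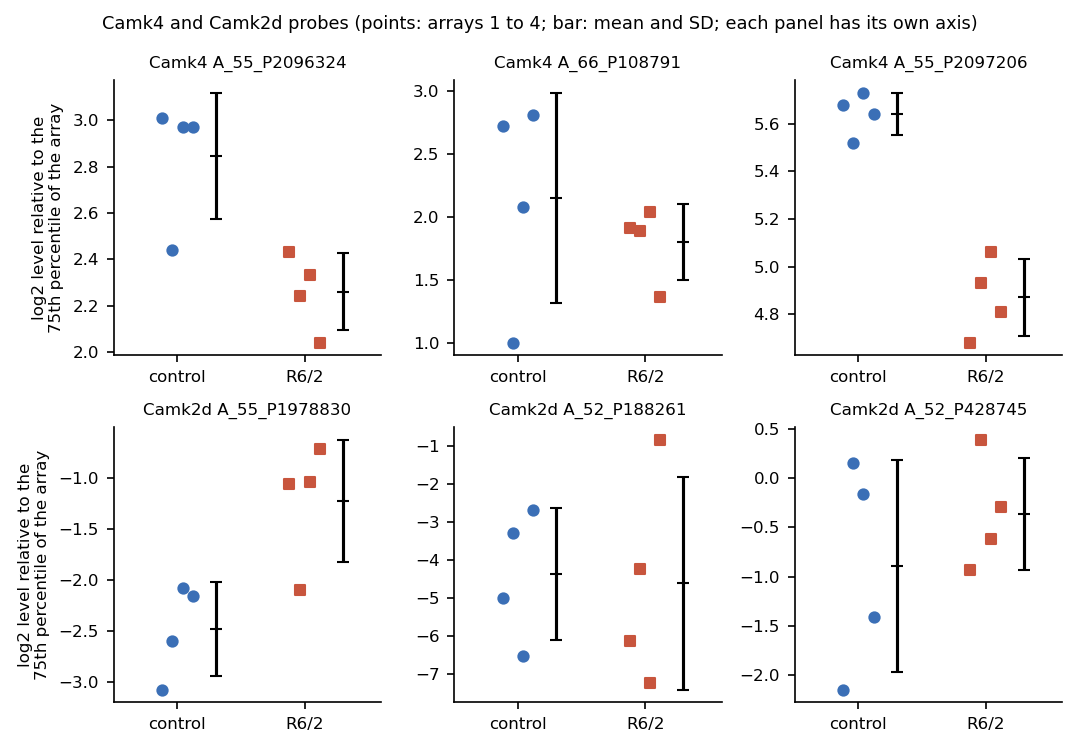
Log2 level relative to the array's 75th percentile of the 3 tested Camk4 probes (upper row) and the 3 tested Camk2d probes (lower row) on the 4 control and 4 R6/2 arrays; points are arrays, bars the mean and SD, and each panel has its own axis, so levels of different panels are not comparable. The Camk4 A_55_P2097206 groups are apart (control 5.52 to 5.73, R6/2 4.68 to 5.06), and on Camk2d A_55_P1978830 R6/2 replicate 2 (-2.10) meets the highest control array (-2.08).

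Within CaMKII, the forebrain subunits Camk2a and Camk2b and the gamma subunit read lower in R6/2. Camk2b, the beta subunit that binds actin, had non-overlapping groups on both probes. Probe A_55_P2150578, printed above, read 4.59, 4.49, 4.59 and 4.72 in control and 4.24, 4.21, 4.19 and 3.76 in R6/2. R6/2 replicate 4 stood below the other 3 R6/2 arrays, which were close together. Its difference was -0.49 ± 0.19 (SE; 95% interval -0.93 to -0.06; limma unadjusted p = 0.0315, adjusted p = 0.691). Probe A_55_P2109377 (chr11:5869675-5869734) read 6.15, 6.38, 6.21 and 6.61 in control and 6.04, 5.77, 6.04 and 5.89 in R6/2, with R6/2 replicates 1 and 3 just under the lowest control array. It differed by -0.41 ± 0.19 (SE; 95% interval -0.84 to 0.03; adjusted p = 0.733).

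Camk2a encodes the alpha subunit, the main form in forebrain excitatory neurons and also found in MSNs. Probe A_55_P2149215 (chr18:61147739-61147798) read 4.82, 5.10, 4.36 and 4.74 in control and 4.31, 4.64, 4.60 and 3.61 in R6/2. The groups overlapped through control replicate 3 and R6/2 replicates 2 and 3, and R6/2 replicate 4 was the lowest. The difference was -0.47 ± 0.29 (SE; 95% interval -1.13 to 0.19; adjusted p = 0.785), and -0.24 without R6/2 replicate 4. Probe A_55_P2149209 (chr18:61144458-61144517) read 4.13, 4.52, 4.14 and 4.19 in control and 4.52, 3.93, 3.88 and 3.71 in R6/2. Here R6/2 replicate 1 was level with the highest control array while the other 3 R6/2 arrays were below all controls. The difference was -0.24 ± 0.23 (SE; 95% interval -0.77 to 0.30; adjusted p = 0.866), and with 1 array left out it ran from -0.40 (without R6/2 replicate 1) to -0.14 (without R6/2 replicate 4).

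Camk2g, the gamma subunit, is known as a shuttle of calmodulin to the nucleus. Its probe A_55_P2020341 (chr14:21554122-21554181) read 1.76, 2.25, 1.85 and 2.29 in control and 1.11, 1.38, 1.90 and 1.25 in R6/2. R6/2 replicate 3 lay within the control range and the other 3 R6/2 arrays lay below it. The difference was -0.63 ± 0.25 (SE; 95% interval -1.19 to -0.07; limma unadjusted p = 0.0325, adjusted p = 0.691).

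Camk2d, the delta subunit, best known from heart muscle, was the exception. Its probe A_55_P1978830, printed above, read -3.08, -2.60, -2.08 and -2.16 in control and -1.06, -2.10, -1.04 and -0.72 in R6/2. R6/2 replicates 1, 3 and 4 were above all controls, and R6/2 replicate 2 fell just below the highest control array. The difference was 1.25 ± 0.36 (SE; 95% interval 0.43 to 2.07), a ratio of 2.38 of R6/2 to control (limma unadjusted p = 0.00737, adjusted p = 0.576). The signal was dim: 3 of 4 control arrays and 4 of 4 R6/2 arrays were well above background, so the probe drops out when all 8 are required. Under the other 17 settings the unadjusted p stayed under 0.05, with differences from 0.73 to 1.54.

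The remaining Camk2d probes did not repeat this clearly. Probe A_52_P428745 (chr3:126547685-126547744) read -2.15, 0.15, -0.16 and -1.41 in control and -0.93, 0.39, -0.62 and -0.29 in R6/2, and the groups overlapped. It differed by 0.53 ± 0.54 (SE; 95% interval -0.69 to 1.76; adjusted p = 0.869), but by 0.11 without control replicate 1, 0.28 without R6/2 replicate 2 and 0.88 without control replicate 2. Probe A_52_P188261 (chr3:126545798-126545857) read -5.01, -3.28, -6.52 and -2.68 in control and -6.14, -4.23, -7.24 and -0.83 in R6/2, and was well above background on 2 arrays of each group. Its difference of -0.23 ± 1.4 (SE; 95% interval -3.43 to 2.96; adjusted p = 0.983) had no stable sign: it was 0.13 without control replicate 2, 0.33 without control replicate 4, 0.28 without R6/2 replicate 1 and 0.64 without R6/2 replicate 3. Probe A_55_P1955172 (chr3:126543318-126543377) starts 35 bases beyond the end of A_55_P1978830, was designed on another transcript record, and was above background on 0 control arrays and 1 R6/2 array. It was not tested, nor was the third Camk2a probe, A_55_P2169980 (chr18:61102991-61103050), also above background on 0 control arrays and 1 R6/2 array.

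Whether probes of a gene differed from each other was tested on the gap between 2 probes of a gene on the same array, a test chosen after the data were seen. Over the 10 pairs of tested probes from Camk1d, Camk2a, Camk2b, Camk2d, Camk4 and Camkk2, the exact two-sided permutation p adjusted over the 10 pairs was between 0.730 and 0.800. Between genotypes, the gap between the Camkk2 probes differed by -0.58 (exact permutation p = 0.171) and those between Camk2d A_55_P1978830 and its neighbours A_52_P428745 and A_52_P188261 by 0.72 and 1.48 (exact permutation p = 0.314 and 0.371). With 4 arrays a group, the smallest unadjusted p this test can give is 0.0286, so a single differing pair could not have passed 0.05 after adjustment over 10 pairs.

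The authors' deposited table gave the same directions on all 17 tested probes, with a corrected p-value between 0.332 and 0.986. In the authors' deposited table, Camk4 A_55_P2097206 had an absolute fold change of 1.71 down, an unpaired-test p of 0.000164 and a corrected p of 0.332. For Camk2d A_55_P1978830 the authors' deposited table listed an absolute fold of 2.38 up, with a p of 0.0165 and a corrected p of 0.823.

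**Figure D4:**
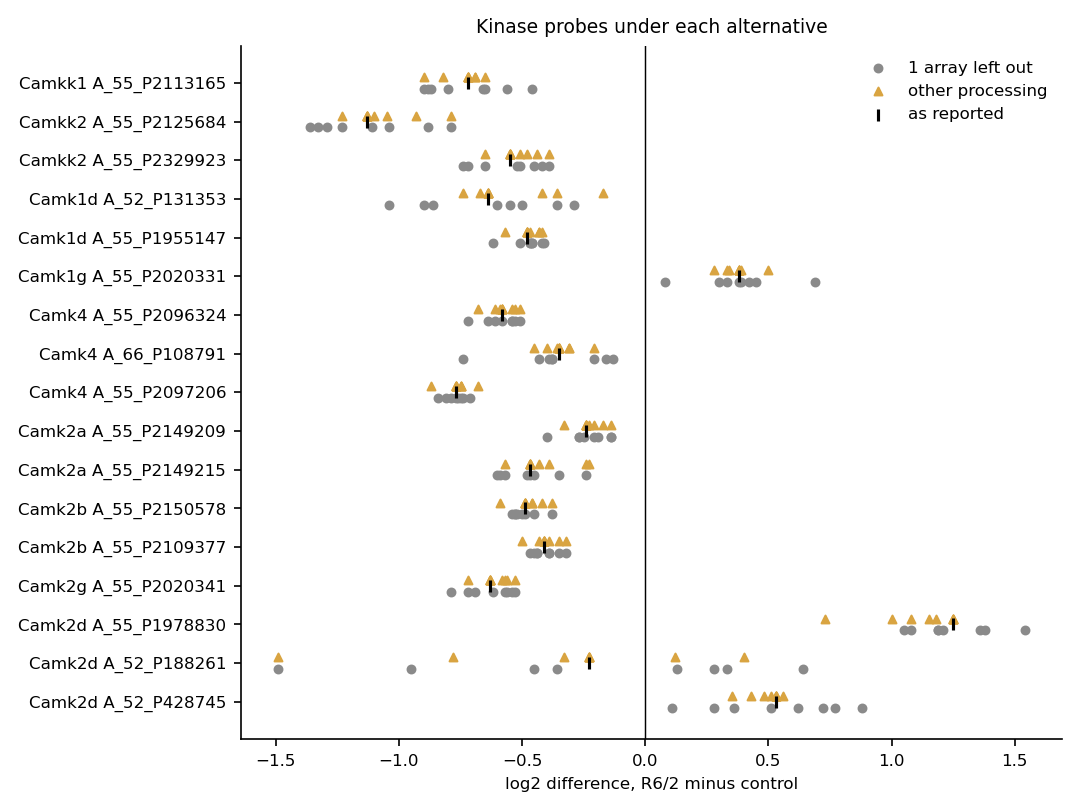
Log2 difference (R6/2 minus control) of each tested kinase probe as reported (black bar), with 1 array left out (grey circles) and under other processing choices (orange triangles). All values of 16 probes keep their side of 0, and those of Camk2d A_52_P188261 run from -1.49 to 0.64. Some processing choices change only the test or the filter and leave the difference as it is.

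Genes around the kinases were read as 1 probe per gene, the tested probe with the highest mean level, over 26918 genes. In this view 7 of the 9 kinase genes had a negative difference (46% of all genes did), with a median of -0.48 against 0.03 over all genes. At an unadjusted p under 0.05, 3 were lower (Camk4, Camk2g and Camk1d; 3.46% of all genes) and 0 higher (3.68% of all genes), and 0 passed after adjustment (0.00371% of all genes, 1 gene). No gene of the 5 lists below passed limma's adjusted p of 0.05 either. The 7 negative kinase genes had control means from 0.82 (Camkk1) to 6.34 (Camk2b). The 2 positive ones, Camk1g and Camk2d, were dimmer, at 0.10 and -0.89. The share of negative differences among genes of like signal level was not counted. The kinases and the lists were chosen with earlier results of these data known.

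Calmodulin and its buffers stand upstream of the kinases. Of 9 tested genes, 7 had a negative difference, 0 were lower or higher at an unadjusted p under 0.05, and the median was -0.20. The 7 had control means of 4.09 to 8.03, and the 2 positive genes of 4.01 and -2.32. The smallest p-values belonged to Pcp4, a small calmodulin-binding protein abundant in MSNs (-0.31), Marcksl1 (1.01, but 0.51 without control replicate 1 and 1.54 without control replicate 2) and Marcks (0.29), which are calmodulin-binding substrates of protein kinase C.

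Inhibitors and phosphatases of the kinases had no common direction. Of 7 tested genes, 3 were negative and 4 positive, 1 was lower and 1 higher at an unadjusted p under 0.05, and the median was 0.08, or -0.02 with median scaling. Camk2n2, an inhibitor protein of CaMKII, read -4.82, -0.91, -4.80 and -6.85 in control and -0.89, 0.28, -1.93 and -1.58 in R6/2. Only control replicate 2 was as high as the R6/2 arrays, and it was the 1 control array well above background, where 4 of 4 R6/2 arrays were. The gene thus met the filter through the R6/2 arrays, where it is high, and it is the 1 higher gene of this list. The fitted difference of 3.31 ± 1.13 (SE; limma unadjusted p = 0.0178, adjusted p = 0.634) rests on control values near background and its size is uncertain. Its paralogue Camk2n1 had the opposite sign, with 5.51, 4.89, 5.60 and 5.65 in control and 4.89, 4.73, 5.31 and 4.57 in R6/2, overlapping groups and a difference of -0.54 ± 0.25 (SE; limma unadjusted p = 0.0609). Ppp1ca, a catalytic subunit of protein phosphatase 1, which removes phosphate from CaMKII, differed by -0.46 ± 0.18 (SE; limma unadjusted p = 0.0339), with groups that did not overlap.

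Among 14 tested related kinases of the same group, 8 were negative, 2 were lower and 0 higher at an unadjusted p under 0.05, and the median was -0.09. The pseudokinase Camkv, which binds calmodulin without kinase activity, read 4.48, 5.36, 4.37 and 4.78 in control and 4.14, 3.68, 4.34 and 3.76 in R6/2. The groups did not overlap, although R6/2 replicate 3 was just under control replicate 3, and the difference was -0.77 ± 0.27 (SE; limma unadjusted p = 0.0211, adjusted p = 0.644). The doublecortin-like kinase Dclk3 differed by -0.52 ± 0.22 (SE; limma unadjusted p = 0.0463) and the death-associated kinase Dapk1 by -0.44 ± 0.19 (SE; limma unadjusted p = 0.0505).

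Substrates and downstream regulators showed no common direction. Of 30 tested genes, 16 were negative and 14 positive, 3 were lower and 0 higher at an unadjusted p under 0.05, and the median was -0.04. The 3 were Actn2, an alpha-actinin that anchors CaMKII at synapses (-1.0, with 0.39 on its other probe), the exchange factor Kalrn (-0.51, with up to 0.46 among its 8 tested probes) and the scaffold Git1 (-1.13, but -0.60 without R6/2 replicate 1). Calcineurin, the calcium-activated phosphatase that opposes the kinases, and its regulators had 5 negative and 7 positive differences over 12 tested genes, a median of 0.21 (0.04 with normexp background correction and 0.11 with median scaling) and 0 genes at an unadjusted p under 0.05. Its catalytic subunit Ppp3ca differed by -0.41, the anchoring protein Akap5 by -0.37 (groups that did not overlap) and the inhibitor Rcan3 by 1.02. In this list the sign went with signal level. The 5 negative genes had control means of 3.54 to 7.64, and the 7 positive ones of -2.46 to 0.50. The part of signal level in the differences was not tested. With median scaling the medians of the calmodulin, related-kinase and substrate lists were -0.30, -0.19 and -0.14, and with normexp -0.12, -0.06 and -0.01.

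**Figure D5:**
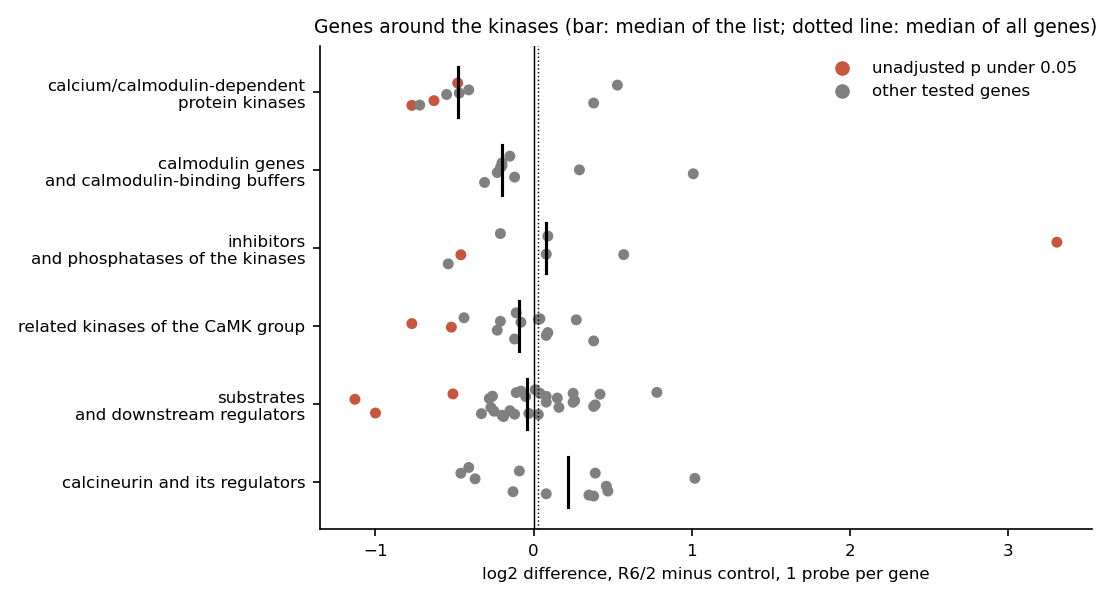
Log2 difference (R6/2 minus control) of the kinase genes and of the 5 lists around them, 1 probe per gene; each point is a gene, red marks an unadjusted p under 0.05, black bars are list medians and the dotted line the median of all genes (0.03). The kinase median is -0.48 and the other medians lie between -0.20 and 0.21, with lists not matched for signal level. The far right point is Camk2n2, well above background on 1 of 4 control arrays.

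Markers of the sorted cells read lower in R6/2 beside the kinases. All 14 MSN markers had a negative difference (46% of all genes did), 9 of them at an unadjusted p under 0.05 (3.46% of all genes were lower at it), with a median of -0.64. None of these or the other markers passed limma's adjusted threshold. The mean level of the MSN markers was 5.38 to 5.73 on the control arrays and 4.80 to 5.06 on the R6/2 arrays. Scn4b, whose reporter served the sort, differed by -1.15 ± 0.28 (SE; limma adjusted p = 0.559). Ppp1r1b (the MSN phosphoprotein DARPP-32) was well above background on all 8 arrays. It differed by -0.54 ± 0.18 (SE; limma unadjusted p = 0.0179, adjusted p = 0.635), with groups that did not overlap. Mouse Htt differed by 0.27 (0.12 without R6/2 replicate 3). The 7 tested oligodendrocyte markers of 8 were all negative too, with a median of -0.87, none at an unadjusted p under 0.05, and mean levels of -0.77 to 1.97 in control and -1.35 to -0.03 in R6/2. Markers of glutamatergic neurons, which are rich in Camk2a and Camk2b, were mixed. Slc17a7 was above background on 0 control arrays and 1 R6/2 array, and Slc17a6 and Neurod6 on 0 of 8. Rorb, Emx1, Neurod2 and Tbr1 were above background on 4 of 4 arrays of each group, with Rorb at 1.89 in control and 1.97 in R6/2. Of that list, 5 of 10 genes were tested, all positive, with a median of 0.12 and mean levels of -1.61 to -1.05 in control and -1.49 to -0.55 in R6/2. The other lists had tested medians between -0.21 and 0.19, with 1 gene at an unadjusted p under 0.05, Dcx (1.18). The part of cell content in the kinase differences was not tested.

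Array quality was uneven. Probes well above background made up 50.1% to 76.2% on the control arrays and 74.0% to 78.8% on the R6/2 arrays (66.6% ± 11.5 and 76.0% ± 2.0, SD, n = 4 each, exact permutation p = 0.114). Control replicate 1 was the lowest, and the difference between the groups was 9.43 percentage points with it and 3.94 without it. All tested kinase probes were above background on all 8 arrays except Camk2d A_55_P1978830 (7 arrays) and A_52_P188261 (4 arrays). The part of array quality in the kinase differences, lower or higher, was not tested.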

How the data were processed

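Per the file headers, the authors' scanner files hold spot intensity from Agilent Feature Extraction 10.7.3.1, 1 dye (Cy3), with spatial and multiplicative detrending and no scaling between arrays. The deposited whole-series table holds the authors' log2 values (raw intensity over each array's 75th percentile), p-values from an unpaired t-test and an absolute fold change (a ratio). Per the labels, 4 to 20 ng of RNA was extracted. Here, outlier spots were left out (except 125 values with no other spot of the probe), spots averaged per probe, log2 taken and the 75th percentile subtracted. limma 3.58.1 in R 4.3.3 (lmFit, eBayes, two-sided) compared all 8 arrays over 41385 probes, with Benjamini-Hochberg adjustment and a threshold of 0.05. The number of arrays limits the precision. Single values were compared by exact permutation over 70 assignments. All kinase probes are named, plus up to 3 genes with the smallest p-value per list, the glutamatergic markers Rorb, Emx1, Neurod2 and Tbr1 and the marker Dcx, chosen after their values were seen, Scn4b, Htt and defining markers; some list members are not reported here. Probe names became symbols through accession (26762), symbol (3819) or older symbol (639), with GRCm38.p6 names; 24461 kept the file's name. The members and lists were chosen with earlier results of these data known. R6/2 replicate 3 had 1 garbled line, and 62974 of its spots were read, against 62976 on each other array.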

Additional observations from a re-analysis of the deposited data

Results flagged for a closer look

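Over 42 sets of 4 values (20 kinase probes plus the share of probes above background, 2 groups each), 6 had 1 array far from the other 3. Chance gives about 1 in 20 for independent, normally distributed values. These sets share arrays and genes, so that rate is only a rough guide. Camk4 A_55_P2096324 read 2.44 in control replicate 2 against 2.97 to 3.01 in the other controls. Camk2b A_55_P2150578 read 3.76 in R6/2 replicate 4 against 4.19 to 4.24. Camk2a A_55_P2149209 read 4.52 in control replicate 2 against 4.13 to 4.19, and Camk1d A_55_P1955147 read 1.75 in R6/2 replicate 2 against 1.62 to 1.63, a gap that is small because the other 3 arrays nearly coincide. The remaining pair were dim probes that were not tested: Camk1 A_51_P106259 read -2.66 in R6/2 replicate 4 against -6.10 to -5.64, and Camk2d A_55_P1955172 read -4.36 in R6/2 replicate 1 against -7.29 to -6.90.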

How the results depend on the processing

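No kinase probe or gene passed the adjusted threshold of 0.05 in limma or the unpaired t-test, under any alternative. Of the alternative values of the kinase probes and genes, 307 kept their sign and 6 reversed. Part of the 307 could not have reversed: the t-test, the replicate block and the changed filters leave each difference as it is. The 6 were all of Camk2d A_52_P188261 (-0.23 as reported): 0.12 with normexp, 0.40 with quantile normalization, and 0.13 to 0.64 in 4 of the 8 fits that left out 1 array (all 8 ran from -1.49 to 0.64). Its arrays near background limit it, and the cause was not tested. Kinase probes lower at an unadjusted p under 0.05 numbered 6 as reported, 2 with the replicate number as a block, 2 with slide and scan as a block (the same as without R6/2 replicate 4) and 2 to 5 with 1 array left out. Those higher numbered 1, but 0 when all 8 arrays had to be above background and 1 to 2 with 1 array left out. Over the whole array 1 probe was called, 8 with normexp, 2 with quantile normalization, 7 with the stricter filter, 0 with the t-test, 0 with the replicate block, 0 with slide and scan as a block and 0 to 3 (3 without control replicate 1) with 1 array left out. Same-numbered arrays did not deviate together (correlations -0.04 to 0.02), so the numbers were not taken as pairs. The median of the inhibitor list was 0.08 and -0.02 with median scaling.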
